A study of Mus musculus with 4 samples.

Results

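Mouse embryonic fibroblasts (MEFs) that carried the reprogramming factors Oct4, Sox2 and Klf4 together with AKT-MER (OSKA) were compared with MEFs that carried the 3 factors alone (OSK), both under 4-hydroxytamoxifen (4OHT). The comparison holds 2 of the 4 arrays of the series, OSKA 4OHT and OSK 4OHT, 1 array each, chosen by their titles. The MEFs came from male E13.5 embryos of an Oct4-EGFP transgenic mouse, pooled from several embryos. All genes arrived by retroviral infection, 4OHT or its ethanol vehicle was given from 3 days postinfection (dpi), and RNA was taken at 8 dpi. The other two arrays, OSK vehicle and OSKA vehicle, received no 4OHT and stand beside the comparison where they show on which array a difference lay. AKT-MER is a myristoylated AKT fused to a modified estrogen receptor, expressed from the viral vector in whichever cells were infected. Because both arrays saw 4OHT, the question asked is what the fusion protein and its activation change when the ligand itself is held constant. The title of the OSKA 4OHT array was followed for its group, although its free-text description says that AKT-MER was inactive, as the descriptions of all 4 arrays do.

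AKT is a serine/threonine kinase that is recruited to membranes by the lipid product of phosphoinositide 3-kinase (PI3K). It phosphorylates the FOXO transcription factors, which then leave the nucleus, and it relieves the brake on mTORC1, which drives growth and synthesis of protein, lipid and nucleotides. Its activity is held in check by feedback on insulin and growth factor receptors and on their adaptor proteins. A myristoylated AKT bypasses the membrane step, and fusion to the receptor domain makes it dependent on 4OHT.

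Each gene is given by its level, the log2 signal of its probe minus the 75th percentile of that array, and by the difference between the levels on the OSKA 4OHT and OSK 4OHT arrays. With 1 array a group there was no replicate check and no test, so a difference includes whatever separates any pair of cultures, labellings and hybridisations. The error that the scanner software attaches to a difference had a median of 0.205 on the log2 scale, a 1.15-fold change, and covers the spot only. A difference of at least 2-fold is counted below as higher or lower. Where a probe stood well above background on 1 array only, the fold is a bound. These are bulk RNA samples, in which fewer cells of a type and less RNA per cell cannot be told apart.

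All 4 arrays lay on 1 slide, each at its own position, and an effect of position cannot be told apart from one of the group. Between 52.4% and 55.4% of the spots that were not controls stood well above background, and the 75th percentile of the signal lay between 376.7 and 461.9 intensity units. Repeated spots of 1 probe had a median SD of 0.057 to 0.066 on the log2 scale. The number of arrays limited the precision, and so did the signal of dim probes, with a median software error of 0.241 in the dimmest tercile against 0.204 in the brightest.

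The AKT-MER transgene was visible through 1 probe of Esr1, the estrogen receptor gene. The probe lies at chr10:5489352-5489411 (NCBI37), and its level was -5.93 on the OSK vehicle array, -5.69 on OSK 4OHT, 3.11 on OSKA vehicle and 3.32 on OSKA 4OHT. It was well above background on both OSKA arrays and on neither OSK array, with a bound of at least 233-fold under 4OHT. Of the other three Esr1 probes, a pair stayed below background on every array. The remaining one was dim (levels -4.20 on OSK vehicle, -5.26 on OSK 4OHT, -4.15 on OSKA vehicle and -3.47 on OSKA 4OHT), with a bound of at least 2.1-fold under 4OHT. Akt1 differed little, with levels of 5.83 on OSK 4OHT and 5.90 on OSKA 4OHT (difference 0.07), and Akt2 had a difference of -0.02. Klf4 stood at 3.24 and 3.25 on the OSK 4OHT and OSKA 4OHT arrays, Pou5f1 (Oct4) at 1.23 and 1.71, and the Sox2 probe was below background on all 4. It was not determined whether the Akt1, Klf4, Pou5f1 and Sox2 probes lie within the inserts of the viral vectors. Their levels therefore do not show whether the vectors were expressed.

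Among 19846 genes measured on both arrays, 603 (3.04%) differed at least 2-fold. Of these, 381 genes (1.92%) were higher in OSKA 4OHT and 222 (1.12%) were lower, so 63.2% of the changed genes were higher. When the arrays were scaled to the spike-in controls instead, 314 were higher and 301 lower, or 51.1% higher. The SD of the difference over all genes was 0.41 and its median -0.05. Beyond 4-fold, 42 genes were higher and 11 lower. Of 3 equal classes of brightness, the dimmest tercile held most of the changes, 5.38% of its genes against 2.69% in the middle tercile and 1.04% in the brightest. A further 207 genes had a bound of at least 2-fold higher and 196 a bound of at least 2-fold lower.

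**Figure D1:**
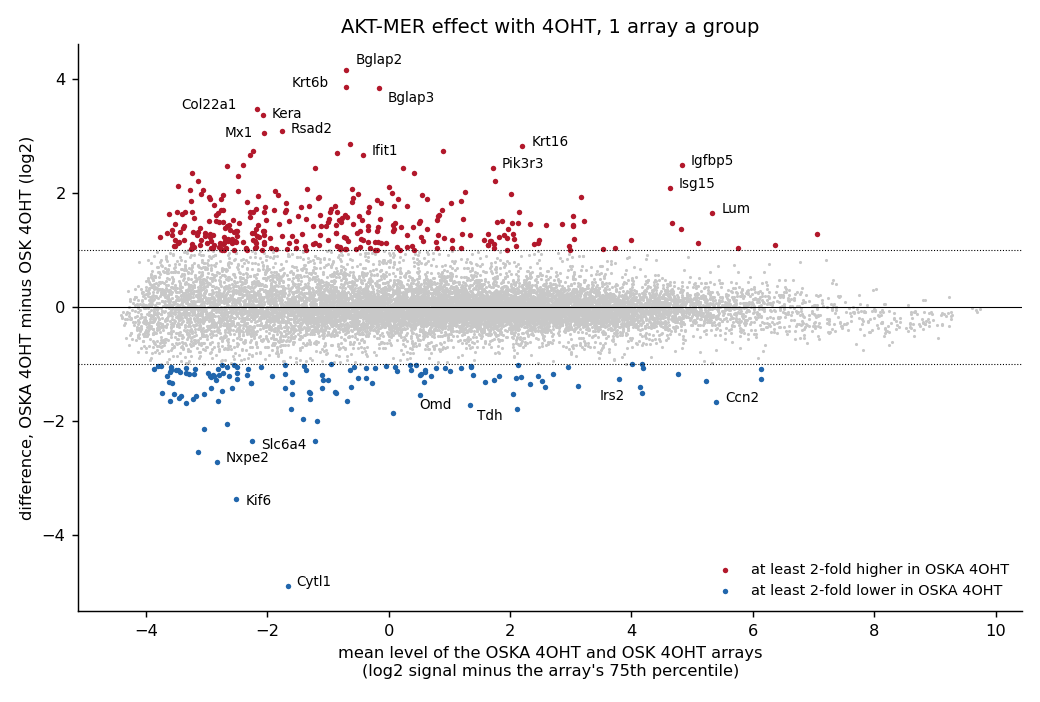
Each point is 1 of 13598 genes with a current symbol, its mean level on the OSKA 4OHT and OSK 4OHT arrays on the x axis (log2 relative to the 75th percentile) against the difference OSKA 4OHT minus OSK 4OHT on the y axis (log2). Dotted lines mark 2-fold. The points that lie farthest out are Bglap2 at 4.16 and Cytl1 at -4.89, and the cloud narrows toward bright genes, where Igfbp5, Isg15, Lum and Ccn2 stand apart.

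The 15 largest differences upward came from a few kinds of gene: osteocalcins (Bglap2, Bglap3), keratins (Krt6b, Krt16), matrix proteins (Col22a1, Kera), interferon-stimulated genes (Rsad2, Mx1, Oasl1, Ifit1), secreted factors (Reg3g, Slpi, Igfbp5), a sodium-calcium exchanger (Slc8a2) and an aldehyde dehydrogenase (Aldh1a7). The largest downward included Cytl1, Nxpe2, the serotonin transporter Slc6a4, the epidermal anchoring protein Lad1, threonine dehydrogenase Tdh and osteomodulin Omd. In the brightest tercile, where the spread was smallest (SD 0.30), the highest were Krt16 (2.82), Igfbp5 (2.49), Isg15 (2.08), the phosphatase Acp5 (1.98) and Rtp4 (1.93), and the lowest were Tdh (-1.80), Ccn2 (-1.67), the proprotein convertase Pcsk6 (-1.53), mesothelin Msln (-1.51) and Irs2 (-1.41).

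The arrays without 4OHT show on which array each difference lay. Of 366 higher genes that were measured on all 4 arrays, 28 were at least 2-fold higher in OSKA both with and without 4OHT. Of the rest, 174 stood at least 2-fold above every other array on OSKA 4OHT alone, 3 stood at least 2-fold below every other array on OSK 4OHT alone, and 161 met none of these. Of 211 lower genes, 26 were at least 2-fold lower in OSKA in both pairs, 55 were set apart by OSKA 4OHT alone, 11 by a high value on OSK 4OHT alone, and 119 met none.

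**Figure D2:**
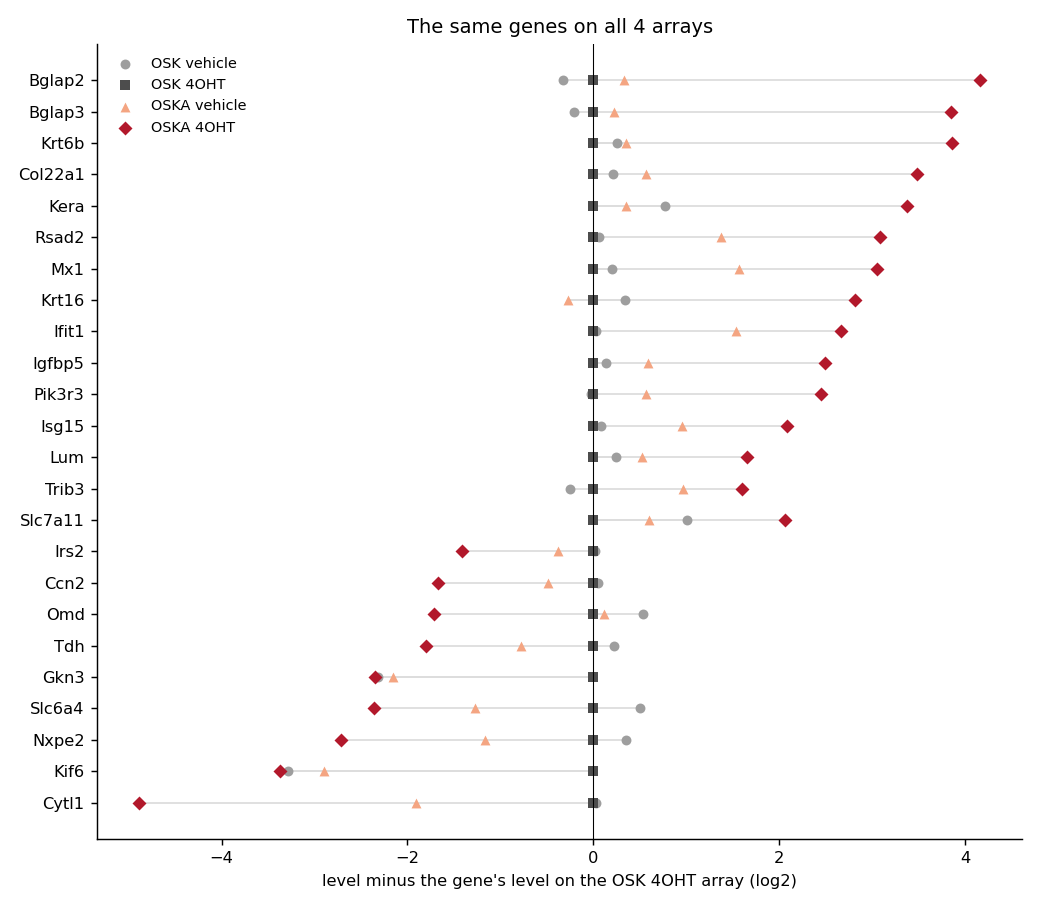
For 24 genes the level on each of the 4 arrays is drawn minus the gene's level on the OSK 4OHT array (x axis, log2), with 1 symbol per array. The OSKA 4OHT symbol lies alone at the right for Bglap2, Krt6b and Col22a1. OSKA vehicle lies between the OSK arrays and OSKA 4OHT for Rsad2, Mx1, Ifit1, Isg15 and Cytl1, and for the Kif6 and Gkn3 probes drawn the OSK 4OHT array alone is high.

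Of the 52 gene lists read, the effectors of interferon had the highest median difference and the largest share of members past 2-fold. Interferons signal through JAK kinases to STAT and IRF factors, which bind the interferon-stimulated response element in the promoters of antiviral genes. Of 51 measured effectors, 47 were higher in OSKA 4OHT and 4 lower, 23 past 2-fold upward and 1 downward (47.1% against 3.04% of all genes), with a median difference of 0.87 against -0.05 over all genes. Rsad2 encodes viperin, an antiviral radical enzyme, and had levels of -3.25 on OSK vehicle, -3.30 on OSK 4OHT, -1.92 on OSKA vehicle and -0.22 on OSKA 4OHT. The difference under 4OHT was 3.08, or 8.46-fold. Mx1, a dynamin-like GTPase that blocks influenza virus, stood at -3.37, -3.57, -2.01 and -0.52 on the same 4 arrays, an 8.29-fold difference under 4OHT. With normexp and quantile normalization the differences of these dim genes became 1.85 for Rsad2 and 1.90 for Mx1 on the log2 scale. The ubiquitin-like modifier Isg15, a bright gene, stood at 3.67, 3.59, 4.55 and 5.68, and its other probe gave a difference of 2.16 beside 2.08. In all these genes the OSK arrays lay close together, OSKA vehicle was higher and OSKA 4OHT highest.

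That order, both OSK arrays below OSKA vehicle and OSKA vehicle below OSKA 4OHT, was found in 41 of the 51 effectors (80.4%) in 11.3% of all 19540 genes measured on all 4 arrays and in 52.2% of the 366 genes at least 2-fold higher, which all meet part of it. The RNA-binding protein Ifit1 went from -1.73 and -1.76 on the OSK arrays to -0.22 and 0.91 on the OSKA arrays. Oasl1, at -2.25 and -2.21, went to -1.11 and 0.49. Usp18, which removes ISG15 and restrains the receptor, had a difference of 1.89, and the chaperone Rtp4 one of 1.93. Without 4OHT the effectors had a median difference of 0.59, and 43 of the 51 had a larger difference with 4OHT than without. The exceptions among the effectors were Ifitm1, a membrane protein that limits viral entry, which was lower (-1.29, another probe in the same direction), and Gbp5, Slfn5 and Tgtp1 at -0.21, -0.26 and -0.69.

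**Figure D3:**
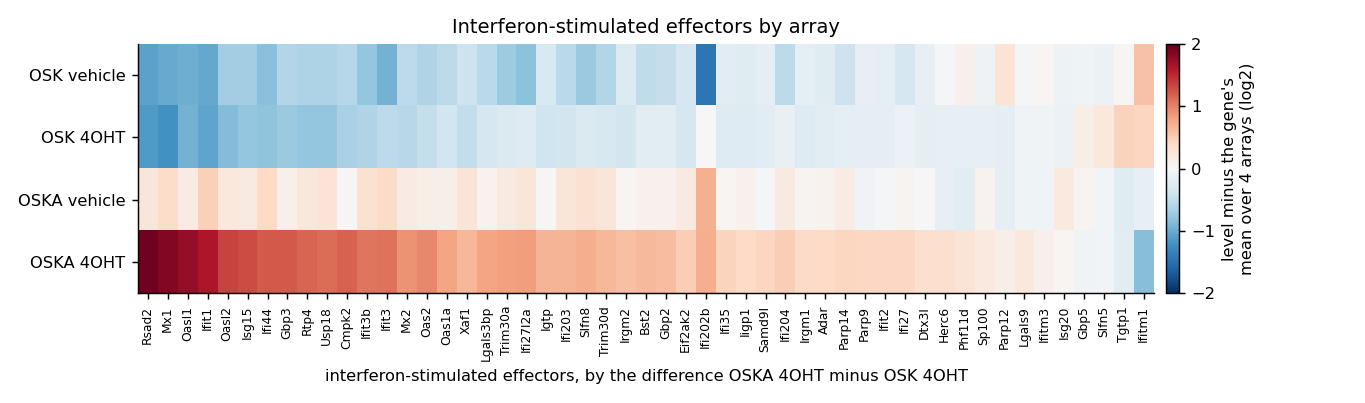
Heat map of the 51 interferon-stimulated effectors (columns, ordered by the difference OSKA 4OHT minus OSK 4OHT) on the 4 arrays (rows). Colour gives the level minus the gene's mean over the 4 arrays (log2), cut at 2 either way. The OSK rows are blue and the OSKA 4OHT row red over most of the columns, the OSKA vehicle row lies between, and Ifitm1 at the right end runs the other way.

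Upstream of these effectors the picture was uneven. Of 31 measured ligands, receptors and sensors, 18 were higher and 13 lower, and 5 were at least 2-fold higher (16.1%, against 1.92% of all genes), with a median of 0.07 that became -0.03 under spike-in scaling. Among these 5 were regulators that interferon itself induces. Irf7, the factor that amplifies interferon production, stood at -2.04, -2.39, -1.21 and -0.31 on OSK vehicle, OSK 4OHT, OSKA vehicle and OSKA 4OHT, a 4.23-fold difference (2.08, or 1.49 with normexp and quantile normalization, on the log2 scale). The RNA sensor Dhx58 was higher by 1.29, the nucleic acid sensor Zbp1 by 1.17 and Stat2 by 1.04 (0.94 at the lowest, under spike-in scaling) on the log2 scale. The receptor subunits Ifnar1 and Ifnar2 differed by -0.19 and 0.07. Interferon beta, Ifnb1, was well above background on the OSKA vehicle array alone (level -3.52), and Ifna4 and Ifng on none. Among the interferon alpha genes, Ifna14 was above background on all 4 arrays and lower in OSKA 4OHT (-1.68, or -0.65 with normexp and quantile normalization), and Ifna7, above background on all but OSKA vehicle, had a difference of -0.47. Presentation genes of MHC class I, many of which interferon induces, were higher in 16 of 21, none by 2-fold, with a median of 0.30 and the peptide transporter Tap1 at 0.88. The interferon-induced chemokine Cxcl10 was 4.30-fold higher and Ccl8 2.60-fold higher.

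Macrophage and leukocyte markers were read beside these genes, since such cells express many of them. Of 20 markers, 18 were well above background on both 4OHT arrays, and the dendritic cell integrin Itgax was not, so RNA of these cells was present in both cultures. Their median level was 4.35 on OSK vehicle, 4.52 on OSK 4OHT, 4.6 on OSKA vehicle and 4.51 on OSKA 4OHT. In the comparison under 4OHT, 13 of 18 were lower in OSKA and 5 higher, with a median of -0.16, none reaching 2-fold. The receptor Csf1r stood at 6.51 on OSK 4OHT and 6.33 on OSKA 4OHT, complement C1qa at 5.17 and 5.11. Without 4OHT the same markers had a median difference of 0.57, the OSK vehicle array being the lowest. The part of these cells in the interferon genes was not tested.

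The interferon-stimulated response element was looked for as GAAANNGAA on either strand in RefSeq promoter windows of 300 bases (GRCm38.p6, 250 before and 50 after the start). Of the 19846 measured genes 11366 had a window. The element occurred in 8.56% of all 32851 windows, in 7.12% of the 14431 windows of measured genes, in 15.7% of the 312 windows of genes at least 2-fold higher, in 11.5% of the 131 windows of genes at least 2-fold lower and in 54.0% of the 50 windows of the effectors. Among the effectors, the 25 genes with a match had a median difference of 0.97, the 15 without one a median of 0.59, and the 11 that had no window a median of 1.09. Oasl1, Oasl2 and Cmpk2 were among the higher genes with no match in their window. The stretches before the start of 4 of the higher genes are shown as examples that hold from 1 to 3 matches, with matches, overlapping ones merged, in capitals, on the strand of the gene.
Isg15 (chr4:156200819-156200968, minus strand): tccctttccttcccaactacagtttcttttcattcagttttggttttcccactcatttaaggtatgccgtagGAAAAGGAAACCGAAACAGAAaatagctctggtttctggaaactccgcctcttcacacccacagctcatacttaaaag
Rsad2 (chr12:26456453-26456602, minus strand): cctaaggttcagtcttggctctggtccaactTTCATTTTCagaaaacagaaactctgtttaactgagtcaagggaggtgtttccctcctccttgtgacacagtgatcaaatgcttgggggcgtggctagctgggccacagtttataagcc
Ifit1 (chr19:34640739-34640888, plus strand): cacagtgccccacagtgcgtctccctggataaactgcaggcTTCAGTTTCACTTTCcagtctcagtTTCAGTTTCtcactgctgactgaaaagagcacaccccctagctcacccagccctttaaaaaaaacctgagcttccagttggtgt
Ifit3 (chr19:34583379-34583528, plus strand): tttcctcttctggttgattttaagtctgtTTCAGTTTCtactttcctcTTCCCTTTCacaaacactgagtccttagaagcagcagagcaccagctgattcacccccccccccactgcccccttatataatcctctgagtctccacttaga
Isg15 and Ifit1 each held 3 matches in these 150 bases, Ifit3 held 2 and Rsad2 held 1. Rsad2, with the fewest matches, had the largest difference of the 4 (3.08), and Ifit3 the smallest (1.61). The looser STAT pattern TTCNNNGAA, which includes every match of TTCCNGGAA, was found in 26.0% of the effectors' windows against 7.03% of those of all measured genes.

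Matrix and mineral genes held the largest upward difference among genes measured on both arrays. Osteocalcin is a small calcium-binding protein of bone matrix that osteoblasts secrete, encoded in the mouse by a cluster of near-identical genes. The Bglap2 probe had levels of -3.11 on OSK vehicle, -2.78 on OSK 4OHT, -2.45 on OSKA vehicle and 1.38 on OSKA 4OHT, so 3 arrays lay within 0.66 of each other and OSKA 4OHT was 17.9-fold above OSK 4OHT (4.16, software error 0.22, or 3.26 with normexp and quantile normalization). Bglap3 stood at -2.30, -2.09, -1.87 and 1.76 (14.4-fold, or 3.03 on the log2 scale under that alternative). Bglap was above background on OSKA 4OHT alone, with a bound of at least 4.4-fold. Probes of both genes are shown because they overlap in 25 of their 60 bases, with the bases that differ in the overlap in capitals.
Bglap2 probe (chr3:88181822-88181881, NCBI37, minus strand): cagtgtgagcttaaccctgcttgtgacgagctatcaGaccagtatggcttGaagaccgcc
Bglap3 probe (chr3:88172673-88172732, NCBI37, minus strand): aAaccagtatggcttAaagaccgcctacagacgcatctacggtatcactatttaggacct
They differ at 2 of those 25 bases, so the share of each osteocalcin gene in the signal is uncertain. The Bglap3 probe shown is not the one that stands for the gene, and gave a difference of 3.95. A further Bglap3 probe was below background on all 4 arrays.

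The other genes of bone had no common direction. Of 19 measured osteoblast and mineral genes, 9 were higher and 10 lower, 4 past 2-fold upward and 1, Omd, downward (26.3%, against 3.04% of all genes), with a median of -0.02 that was positive in 5 of 10 alternatives. The 4 were Bglap2, Bglap3, Col22a1 and Phex, an endopeptidase that controls phosphate (1.98, or 0.89 with normexp and quantile normalization). Bglap2 and Bglap3 may share signal, and the list was chosen with earlier results of these data known. The share past 2-fold is therefore a description only. Runx2, the master factor of osteoblasts, had a difference of -0.34, osteopontin Spp1 -0.56 and the type I collagens Col1a1 and Col1a2 0.40 and 0.18. Col22a1, a collagen of tissue junctions, stood at -3.71, -3.92, -3.35 and -0.43 on OSK vehicle, OSK 4OHT, OSKA vehicle and OSKA 4OHT (11.2-fold, or 2.02 on the log2 scale with normexp and quantile normalization). Sp7 and Ibsp were not measured on both arrays.

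Among the small leucine-rich proteoglycans, which space collagen fibrils, members differed in opposite directions. Keratocan, Kera, stood at -3.0, -3.77, -3.42 and -0.39 (10.4-fold higher, or 1.99 on the log2 scale with normexp and quantile normalization), and lumican, Lum, its neighbour on chromosome 10, at 4.75, 4.51, 5.03 and 6.16 (3.15-fold higher). Osteomodulin, Omd, stood at 2.74, 2.20, 2.31 and 0.48 (3.29-fold lower). Collagens were higher in 20 of 24, against 42.9% of all genes, with a median of 0.34, and 3 passed 2-fold (12.5%, against 3.04% of all genes): Col22a1, Col14a1 (1.48) and Col15a1 (1.22, or 0.58 with normexp and quantile normalization). Of the cartilage genes Sox9, the chondrocyte master factor, was 3.30-fold higher and the link protein Hapln1 2.62-fold higher, while Col10a1, of hypertrophic cartilage, was 2.29-fold lower. On the log2 scale Hapln1 became 0.72 and Col10a1 -0.84 with normexp and quantile normalization. Col2a1 had a difference of -0.12.

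Among genes measured on both arrays the largest difference was that of Cytl1, a small secreted protein of cartilage. Its levels were 0.81 on OSK vehicle, 0.78 on OSK 4OHT, -1.13 on OSKA vehicle and -4.11 on OSKA 4OHT, 29.6-fold lower under 4OHT with a software error of 0.32, a difference of -4.89 that became -3.02 with normexp and quantile normalization. Nxpe2 followed the same order (-1.12, -1.47, -2.64 and -4.19), as did Slc6a4 (-0.58, -1.08, -2.36 and -3.44), Lad1 and the ubiquitin ligase Rnf39. In each the OSK arrays were highest, OSKA vehicle lower and OSKA 4OHT lowest. Under the same alternative Nxpe2 went from -2.72 to -1.27, Slc6a4 from -2.36 to -1.32 and Lad1 from -2.13 to -0.95. Tdh, the enzyme through which mouse embryonic stem cells feed threonine into one-carbon metabolism, stood at 3.23, 3.01, 2.23 and 1.21, with differences of -1.80 and -1.92 for its 2 probes.

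Keratins, the intermediate filaments of epithelia, also differed in both directions. Krt6b and Krt16 are filaments of activated or wounded epidermis. Krt6b stood at -2.38, -2.63, -2.28 and 1.23 on OSK vehicle, OSK 4OHT, OSKA vehicle and OSKA 4OHT (14.5-fold higher, or 3.01 on the log2 scale with normexp and quantile normalization), and a second probe gave a bound of at least 6.5-fold. Krt16 stood at 1.13, 0.79, 0.52 and 3.61 (7.06-fold higher). Krt18, of simple epithelia, was 2.08-fold higher (1.06, or 0.84 at the lowest over the alternatives), and Krt19 2.45-fold lower. Of 10 measured keratins 4 were higher and 6 lower, with a median of -0.05 that became 0.89 without the filter on dim probes and 0.28 as the mean of all probes, and without 4OHT the median was -0.60.

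Junction and adhesion genes of epithelia did not follow Krt6b and Krt16. Of 20 measured, 9 were higher and 11 lower and none passed 2-fold. E-cadherin, Cdh1, had a difference of -0.60, Epcam -0.40, the desmosomal Dsp 0.88 and Cldn1 -0.97, of which the latter pair became 0.53 and -0.33 with normexp and quantile normalization. Of 7 keratinocyte and epidermal markers measured, 5 were lower. Among the 7, 1 passed 2-fold (14.3%, against 3.04% of all genes), the secreted Fgfbp1 (2.86-fold lower). The early mesenchymal factor Snai2 had a difference of 0.06, and of 22 mesenchymal genes none passed 2-fold.

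**Figure D4:**
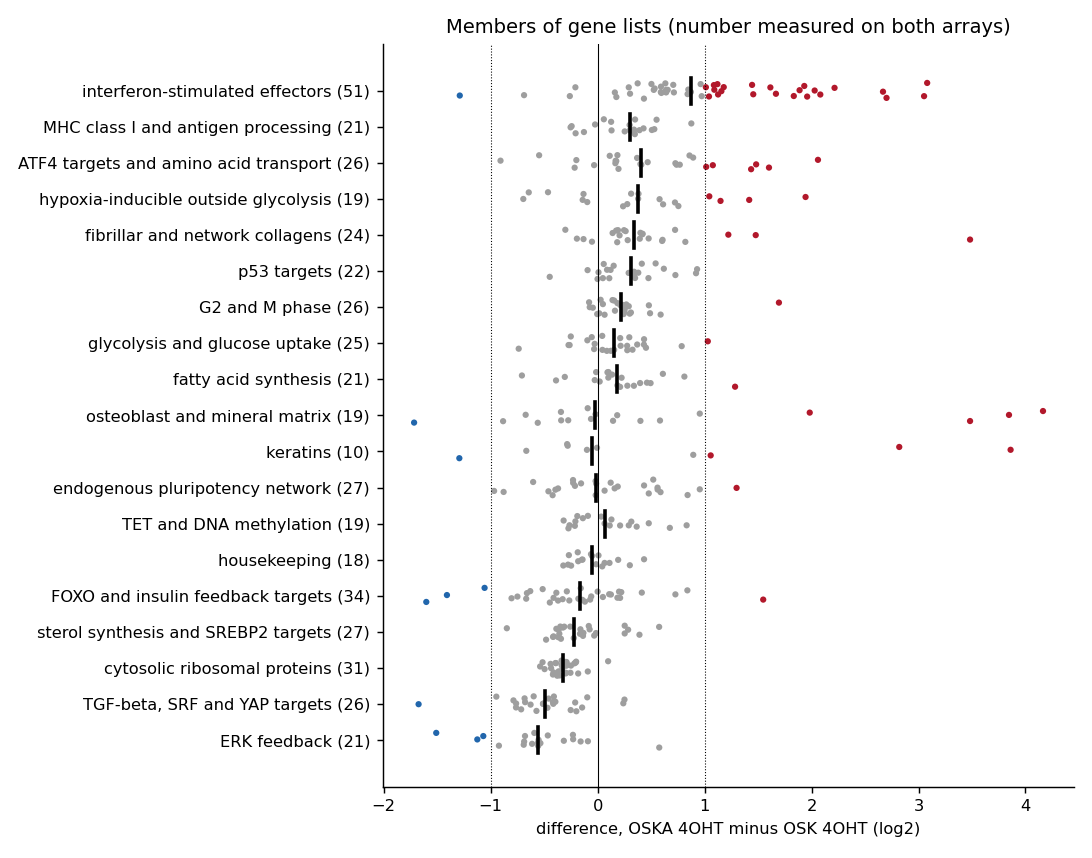
Difference OSKA 4OHT minus OSK 4OHT (x axis, log2) of each measured member of 19 gene lists (rows, number of members in brackets). Black bars are list medians, red and blue points are members at least 2-fold higher or lower. The effectors of interferon lie farthest right (median 0.87), and the ERK feedback genes (-0.56) and TGF-beta, SRF and YAP targets (-0.49) farthest left, while the osteoblast and keratin lists have medians near 0 with a few members far to the right.

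The pathway AKT belongs to showed differences at its receptor and adaptor level. Irs2, which couples the insulin and IGF1 receptors to PI3K, stood at 4.86, 4.84, 4.46 and 3.43 on OSK vehicle, OSK 4OHT, OSKA vehicle and OSKA 4OHT (2.66-fold lower). The receptor Igf1r stood at 3.66, 3.47, 3.36 and 2.42 (2.08-fold lower) and the adaptor Irs1 had a difference of -0.81. The regulatory subunits of PI3K ran the other way: Pik3r3 stood at 0.47, 0.49, 1.06 and 2.94 (5.44-fold higher) and Pik3r1 was 2.06-fold higher (0.95 on the log2 scale under spike-in scaling), and the catalytic Pik3cb had a difference of -0.99. Ddit4 (REDD1), which inhibits mTORC1, was 2.79-fold higher and the pseudokinase Trib3, which binds AKT, 3.04-fold higher. The list of PI3K and AKT pathway genes did not hold Irs2 and Igf1r, which were listed with the FOXO and insulin feedback targets. Of its 28 measured genes, 4 passed 2-fold (14.3%, against 3.04% of all genes), all of them higher. The median was -0.03, or 0.01 with cyclic loess.

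Genes that FOXO factors and insulin feedback control had a negative difference in 23 of 34, against 11331 of all 19846 genes, and a median of -0.17 against 0.06 without 4OHT. Past 2-fold were 4 of the 34 (11.8%, against 3.04% of all genes), 3 of them lower. The 3 were Irs2, Igf1r and Klf15, a regulator of gluconeogenesis (-1.60). Igf1r became -0.98 and Klf15 -0.65 with normexp and quantile normalization. Foxo6 was higher (levels -0.33, -0.92, -0.91 and 0.63, 2.93-fold), while Foxo1, Foxo3 and Foxo4 had differences of -0.14, -0.07 and -0.45. The FOXO motif TGTTTAC occurred in 6.87% of windows of genes at least 2-fold lower, 2.24% of those of genes at least 2-fold higher and 2.60% of those of all measured genes. It occurred in 11.4% of the 35 windows of the listed targets. Igfbp5, which binds IGFs in the matrix, stood at 3.71, 3.58, 4.17 and 6.07 (5.63-fold higher), while Igfbp3 had a difference of -0.40.

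Genes that report ERK signalling had mostly negative differences. They are transcribed within minutes of growth factor signalling, and many encode the phosphatases and Sprouty proteins that end it. Of 21 measured, 20 were lower and 1 higher, with 3 past 2-fold downward (14.3%, against 1.12% of all genes) and a median of -0.56. Dusp4, an ERK phosphatase, stood at -0.14, -0.11, -0.39 and -1.62 (2.85-fold lower), Etv4 was 2.18-fold lower with its other probe at -1.16, and Myc was 2.10-fold lower (-0.98 on the log2 scale with normexp and quantile normalization). Spred3, the exception, had a difference of 0.58. The median without 4OHT was -0.37. Outside the list, the EGF-like ligand Hbegf was 2.65-fold lower.

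Targets of TGF-beta, SRF and YAP include the contractile and matricellular genes of myofibroblasts. They had a negative difference in 24 of 26 members, against 11331 of all 19846 genes. Their median was -0.49 against 0.10 without 4OHT. Only Ccn2 (connective tissue growth factor) passed 2-fold (3.85%, against 3.04% of all genes), at 6.28, 6.23, 5.74 and 4.56 (3.19-fold lower). Transgelin, Tagln, was highest on OSKA vehicle, at 5.22, 5.68, 5.97 and 4.73, and smooth muscle actin, Acta2, likewise, at 5.22, 5.53, 5.82 and 4.74. For these contractile genes OSKA 4OHT was the lowest of the 4 arrays and OSKA vehicle the highest. In 24 of the 26, the difference was smaller, or more negative, with 4OHT than without. The CArG box, the site of SRF, occurred in 4 of 17 windows of the list (23.5%) against 1.39% of those of all measured genes.

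Amino acid and stress genes under ATF4, the factor that responds to amino acid shortage and to mTORC1, were higher in 21 of 26, with 6 at least 2-fold higher (23.1%, against 1.92% of all genes, of which 42.9% had a positive difference) and a median of 0.40. Slc7a11, which imports cystine, stood at -3.30, -4.30, -3.70 and -2.24 (4.17-fold higher on a dim probe, 0.79 on the log2 scale with normexp and quantile normalization). The mitochondrial folate enzyme Aldh1l2 was 2.70-fold higher and the glutathione-cleaving Chac1 2.11-fold higher (0.98 on the log2 scale under spike-in scaling). Trib3 stood at 1.99, 2.24, 3.21 and 3.84. Cbs, of cysteine synthesis, was 2.02-fold higher (0.61 on the log2 scale with normexp and quantile normalization, and also under 2-fold with spike-in scaling), and Asns 0.47 and Atf4 itself 0.17 higher on the log2 scale. Among 19 NRF2 targets, which protect against oxidants, 2 were at least 2-fold higher, against 1.92% of all genes. They were Slc7a11 and Nqo1 (2.88-fold higher).

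Hypoxia-inducible genes outside glycolysis were higher in 13 of 19, with a median of 0.38 and 4 at least 2-fold higher (21.1%, against 1.92% of all genes): the carbonic anhydrases Car12 (3.85-fold, or 1.11 on the log2 scale with normexp and quantile normalization) and Car9 (2.22-fold), the lipase inhibitor Angptl4 (2.67-fold) and the mitochondrial Higd1a (2.06-fold, or 0.95 on the log2 scale under spike-in scaling). Glycolysis genes were higher in 17 of 25 with a median of 0.15, and 1 passed 2-fold (4.0%, against 3.04% of all genes). The lactate exporter Slc16a3 stood at 2.72, 3.22, 3.02 and 4.25 (2.04-fold higher, 0.94 on the log2 scale under spike-in scaling), Pfkfb3 had a difference of 0.79, Ldha one of 0.30 and Hk2 one of 0.09, while the transporter Slc2a3 had -0.74. Genes of the TCA cycle and of alpha-ketoglutarate had a median of 0.06 (-0.03 under spike-in scaling), and none passed 2-fold. Its highest members were the transaminases Gpt2 (0.93) and Bcat1 (0.85), which make alpha-ketoglutarate or use it, and on the other side glutamate dehydrogenase Glud1 had a difference of -0.58.

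Lipid genes divided by pathway. Sterol synthesis and SREBP2 targets had a negative difference in 22 of 27 (median -0.22), none past 2-fold. Fatty acid genes were higher in 16 of 21, with a median of 0.19, led by the triglyceride enzyme Dgat2 (2.44-fold higher) and the desaturases Scd1 (0.81) and Scd2 (0.61). Of the 21, only Dgat2 passed 2-fold (4.76%, against 3.04% of all genes). In cytosolic ribosomal proteins 30 of 31 differences were negative, the lowest -0.54, and the median of -0.32 shrank to -0.10 under quantile normalization. These are among the brightest probes, and the same list had a median of -0.05 without 4OHT.

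Cell cycle genes differed modestly. G2 and M phase genes were higher in 22 of 26, with a median of 0.22, against 0.02 without 4OHT. Of the 26, 1 passed 2-fold (3.85%, against 3.04% of all genes), the checkpoint kinase Ttk (1.70 on a dim probe, 0.73 with normexp and quantile normalization). Cyclin B1, Ccnb1, had a difference of 0.49 with its other two probes in the same direction, and Aurka one of 0.48. DNA replication genes were higher in 20 of 30, with a median of 0.10 and cyclin E1, Ccne1, at 0.91. Cyclin D1, Ccnd1, was lower (-0.50). Targets of p53 were higher in 19 of 22, none past 2-fold, with a median of 0.32, Trp53inp1 at 0.93 and Cdkn1a (p21) at 0.41.

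The TET enzymes, which oxidise 5-methylcytosine with alpha-ketoglutarate, were not alike. Tet1 stood at -0.19, -0.49, -0.45 and 0.34 on OSK vehicle, OSK 4OHT, OSKA vehicle and OSKA 4OHT (difference 0.83), and both of its other probes had the same direction. Tet2 stood at 1.59, 1.42, 1.65 and 2.09 (0.67, or 0.36 as the mean of all probes), with 1 of 2 other probes in the same direction. Tet3 had a difference of -0.14. For these probes of Tet1 and Tet2 the OSKA 4OHT array was the highest of the 4, while on 1 Tet2 probe OSKA vehicle was the highest. The whole list of 19 genes of TET and DNA methylation had a median of 0.07 (-0.03 under spike-in scaling), and none passed 2-fold.

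Genes of the endogenous pluripotency network showed no common direction at 8 dpi. Of 27 measured, 13 were higher and 14 lower, and 1 passed 2-fold (3.70%, against 3.04% of all genes). The median was -0.01 (0.07 at the highest over the alternatives). Nanog stood at -0.50, 0.03, -0.20 and -0.39, its other probes gave a difference of -0.15 and, above background on OSKA 4OHT alone, a bound of at least 1.46-fold higher, and Zfp42 (Rex1) was below background on all 4 arrays. The 1 past 2-fold was Otx2, a dim probe with levels of -4.31 on OSK 4OHT and -3.01 on OSKA 4OHT, which fell to 0.52 with normexp and quantile normalization. Alkaline phosphatase, Alpl, had 0.95 (0.54 with normexp and quantile normalization) and Klf5 -0.97.

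Some differences lay on the OSK 4OHT array. Kif6, a kinesin, stood at -4.11 on OSK vehicle, -0.83 on OSK 4OHT, -3.72 on OSKA vehicle and -4.20 on OSKA 4OHT, and another of its probes had a difference of 1.28, opposite to the -3.37 of this one (-1.72 with normexp and quantile normalization). Gkn3 stood at -2.36, -0.05, -2.21 and -2.39. The probes of Olfr1318 and Lcn8 were above background on OSK 4OHT alone, with a bound of at least 18.7-fold lower in OSKA 4OHT for Olfr1318 and at least 10.2-fold lower for Lcn8. For these probes of the 4 genes the OSK 4OHT array stood apart, not the OSKA 4OHT array. On the other side, Nefm (neurofilament, at least 12.2-fold higher), Vstm2l (at least 11.3-fold) and Agr2 (at least 8.9-fold) had bounds under 4OHT in which OSKA 4OHT was the highest of the 4 arrays.

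Genes next to each other on a chromosome (NCBI37, gaps of up to 100000 bases between probes) were both at least 2-fold higher in several places. Ifit3, Ifit3b and Ifit1 lie at chr19:34663105-34723855, 3 of the 4 measured named genes in that span. Rsad2 and Cmpk2 lie at chr12:27127859-27164178, Oasl2 and Oasl1 at chr5:115362168-115387920 and Lum and Kera at chr10:97035210-97076289. Neighbours that were both at least 2-fold lower included Kcnj15 and Erg, and Lad1 and Tnnt2. The myosin heavy chains Myh2, Myh1 and Myh8 of skeletal muscle, at chr11:67010960-67121984, were all at least 2-fold higher, and like Ifit3 and Ifit3b they are close copies whose probes may share signal. Myh8 stood at -0.55, -0.76, -1.11 and 1.60 (5.13-fold higher), but its other three probes were not above background, and the myogenic factors Myod1, Myf5 and Myog were not measured on both arrays. Acta1 and Tnnc2 of the same tissue had differences of -0.79 and -1.08 (-0.38 for Tnnc2 with normexp and quantile normalization).

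The AKT-MER effect was also read without ligand, as OSKA vehicle minus OSK vehicle, which shares no array with the comparison under 4OHT. Of 20183 genes measured there, 2.02% differed at least 2-fold, 219 of them higher (1.09%) and 188 lower (0.931%). Set against each other over the 19540 genes with a value on every array, these effects correlated weakly (Pearson's r = 0.14, Spearman's rho = 0.14), which describes genes that are not independent and share probes, labelling and slide. In the brightest tercile of those genes r was 0.22. Changes of at least 2-fold in both were found for 71 genes, 54 in the same direction. Those with the same direction included Cytl1, Nxpe2, Slc6a4, Rnf39 and Syt10 downward and Rsad2, Mx1, Ifit1, Oasl1, Cxcl10 and Trib3 upward. Bglap2, Krt6b and Col22a1 had differences of 0.66, 0.10 and 0.36 without 4OHT beside 4.16, 3.86 and 3.48 with it.

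**Figure D5:**
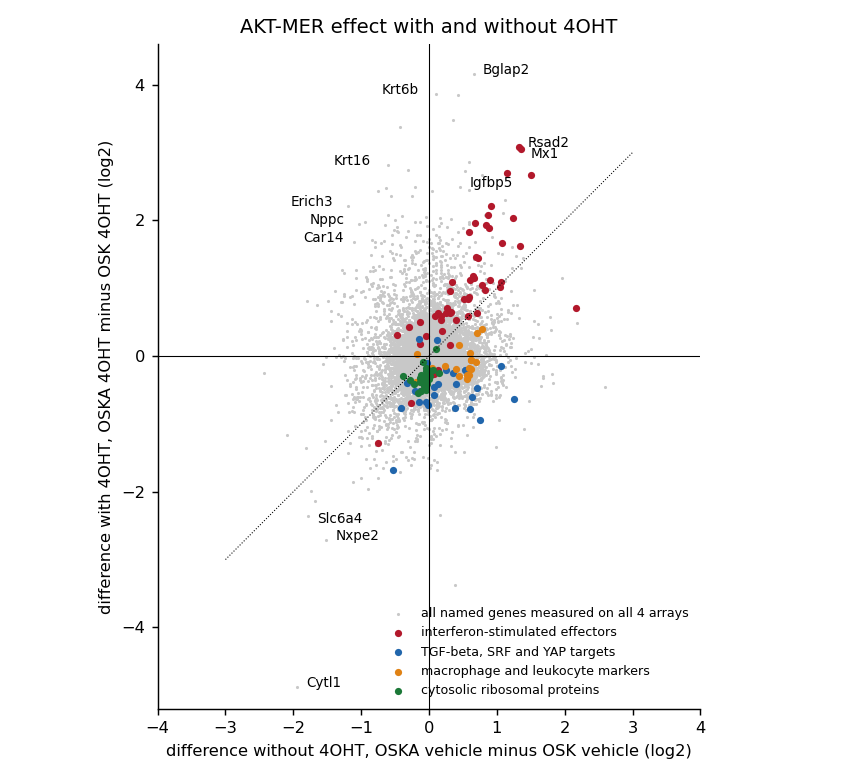
Each grey point is 1 of 13462 named genes measured on all 4 arrays, the difference OSKA minus OSK without 4OHT on the x axis and with 4OHT on the y axis (both log2), with members of 4 lists in colour and the diagonal dotted. Interferon effectors (red) lie mostly upper right and above the diagonal, TGF-beta, SRF and YAP targets (blue) and macrophage markers (orange) lie mostly below it, ribosomal proteins (green) cluster just under 0 on the y axis, and Bglap2, Krt6b and Krt16 lie far above the diagonal.

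Genes with more than 1 probe gave a check within the array, though not of the cultures. Of the 381 higher genes 60 had another measured probe, and in 53 of those all other probes were higher too, while 39 of the 60 had another probe past 2-fold. Of the 222 lower genes 42 had one, with all other probes lower in 35 of the 42 and another past 2-fold in 19. In the dimmest tercile, another probe passed 2-fold for 8 of 18 higher and 6 of 22 lower genes.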

How the data were processed

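Total RNA (100 ng) was labelled with Cy3 and hybridised to Agilent whole-genome arrays. The authors deposited 1 scanner file per array from Agilent Feature Extraction 10.7.3.1, in linear intensity units corrected for background within the array, and a table of the same processed intensity, of which the column medians were 24.5 to 29.5 and the log2 values lay within 0.0072 of the scanner signal.

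From these deposited intensity values, log2 was taken, control spots and spots marked as uneven or outliers were left out, the 75th percentile of the array was subtracted, and spots of 1 probe were averaged. Of 55681 probes, 27503 (49.4%) were named through RefSeq accessions and the rest by the file. Each gene was represented by its brightest probe, averaged over all 4 arrays. A difference needed both arrays well above background, by most of a probe's spots. Where 1 array was below, the bound was taken against the lowest signal well above background or the probe's own, whichever was higher. The contrast was tested on simulated data.

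Genes were named by rule: the 15 largest differences each way, the 10 largest each way in the brightest tercile, the 10 largest bounds each way, the 4 largest of each of 52 lists with up to 6 more past 2-fold, and a fixed set of transgenes and regulators. Other genes named were chosen after their values were seen. The members and lists were chosen with earlier results of these data known. Alternatives used limma 3.58.1 in R 4.3.3, and Python 3.11.15 with pandas 2.3.3 did the rest. Arrays were compared with no test. Some genes are not reported here.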

Additional observations from a re-analysis of the deposited data

Results flagged for a closer look

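The genes in this section were at least 2-fold apart in one direction with 4OHT and at least 2-fold in the opposite direction without it. The difference between the effects was not tested, since each rests on 1 array a group. Higher in OSKA with 4OHT and lower without were Erich3 (2.21 and -1.19), the natriuretic peptide Nppc (1.94 and -1.04), the carbonic anhydrase Car14 (1.68 and -1.11), the glutathione transferase Gsta3 (1.27 and -1.07), the galectin Lgals2 (1.27 and -1.29), the transcription factor Myb (1.23 and -1.25) and the keratin Krt90 (1.15 and -1.08), all log2 differences. Lower with 4OHT and higher without was the peptide hormone Cck (-1.08 and 1.41). Gsta3 stood at 1.39 on OSK vehicle, 1.0 on OSK 4OHT, 0.32 on OSKA vehicle and 2.28 on OSKA 4OHT, and Myb at 0.48, -0.08, -0.76 and 1.15, so in both OSKA vehicle was the lowest array and OSKA 4OHT the highest. The others were dim, with their lowest level under -2 on at least 1 array.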

How the results depend on the processing

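No paired analysis was possible because each group holds 1 array. The 603 genes at least 2-fold apart (63.2% higher) became 242 with a normexp background and quantile normalization (180 higher, 62 lower, 74.4% higher), 3146 without the filter on dim probes (54.2% higher), 2097 at a threshold of 1.5-fold (51.7% higher) and 153 at 3-fold (77.1% higher). The other 8 alternatives gave 577 to 615. Of 101 named genes past 2-fold, 101 kept their direction and 76 stayed past 2-fold under each of the 10 scalings and filters that measured them. Part of this agreement was fixed in advance. Spike-in scaling shifts every gene by the same amount, and the deposited table holds almost the same signal as the scanner files. The filters on dim probes leave the value of a gene measured on both arrays unchanged. With the same limit, 515 of 520 list medians under these alternatives moved by less than the median software error. The 5 that moved more were the keratins (0.89 without the filter, 0.28 as the mean of all probes), the ribosomal proteins (-0.10 with quantile and -0.10 with normexp and quantile normalization) and the neural markers (0.23 with normexp and quantile normalization, beside 0.48). The sign held for 34 of 52 lists, and the 18 that changed sign had medians within 0.11 of 0. The number of arrays, 1 a group, and the dim signal of the dimmest tercile limit these values, and the cause of the shifts was not tested.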

Other observations

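Markers of other cell types were read for all lists. Neural markers were higher in 9 of 14 measured, with a median of 0.48 and the growth cone protein Gap43 at 2.68, 2.46, 2.65 and 3.98 on OSK vehicle, OSK 4OHT, OSKA vehicle and OSKA 4OHT. Endothelial markers were lower in 6 of 8 (median -0.34), with the ETS factor Erg 2.26-fold lower on a dim probe (-1.17, or -0.49 with normexp and quantile normalization). Adipocyte markers were mixed in 7 measured, and the lipid droplet protein Plin4 stood at 1.35, 1.28, 0.82 and -0.27, which was 2.92-fold lower under 4OHT. Lysosome and autophagy genes were lower in 20 of 29 with 4OHT (median -0.14) and had a median of 0.20 without it. The imprinted neuronal gene Nnat was 3.29-fold higher (1.72, or 1.04 with normexp and quantile normalization), and the median of 23 imprinted genes was -0.11, or 0.06 with quantile normalization. Of 31 measured Hox genes, which mark position along the body axis, 20 were higher and 1 passed 2-fold (3.23%, against 3.04% of all genes). It was Hoxb3, whose other probe ran the opposite way (0.72 beside -1.06, and -0.17 as the mean of all probes).

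Gene lists not described above are given by their medians. Chemokines and cytokines had a median of 0.04 (-0.05 under spike-in scaling), with the monocyte chemokine Ccl2 at -0.52. Of 25 measured, Cxcl10 and Ccl8 passed 2-fold (8.0%, against 3.04% of all genes). Complement and acute phase genes had a median of 0.10 with none past 2-fold, the serum amyloid Saa3 at 0.76 and C1s1 at -0.74. Fibroblast identity genes had a median of 0.32, with the fibroblast protease Fap at 0.86 and S100a4 at -0.76. Of 26 measured, only Lum passed 2-fold (3.85%, against 3.04% of all genes). Matrix proteases and their inhibitors had a median of 0.06 (-0.03 under spike-in scaling), with the aggrecanase Adamts4 at 1.17 and Mmp3 at -1.0. BMP and ID genes had a median of -0.08, with the growth factor Gdf5 at 1.23 (0.99 with normexp and quantile normalization) and Bmp4 at -0.88. Wnt genes had a median of -0.07, with the Wnt inhibitor Sfrp4 at 1.10. The IGF system had a median of -0.09. Of 16 measured, Igfbp5 and Igf1r passed 2-fold in opposite directions (12.5%, against 3.04% of all genes).

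Nucleotide and pentose phosphate genes had a median of -0.03, from -0.92 for the purine enzyme Paics to 0.97 for the mitochondrial folate enzyme Mthfd2. Chaperones of the endoplasmic reticulum had a median of 0.19, ribosome biogenesis genes -0.11, cyclin D and CDK inhibitor genes 0.16 and other dioxygenases of alpha-ketoglutarate 0.13, none with a member past 2-fold. Respiratory chain genes (-0.02), BCL2 family genes (-0.06) and housekeeping genes (-0.06) had medians whose sign turned under at least 1 normalization, and none passed 2-fold. Genes of the estrogen response, the pathway 4OHT itself acts on, had a median of 0.04 (-0.06 under spike-in scaling). Of 16 measured, Myb and Cited1 (1.26) passed 2-fold (12.5%, against 3.04% of all genes), both higher. Without 4OHT Myb had a difference of -1.25 and Cited1 one of -0.87.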
